A study of Mus musculus with 30 samples.

Results

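Antigen-presenting cells hand T cells secondary signals through a small set of surface proteins, and 8 genes that encode them were followed here through splenic phagocytes: Cd80, Cd86, Cd40, Cd274, Pdcd1lg2, Cd276, Icosl and Havcr2. The genes were taken by name from a table of 37991 gene identifiers, and all 8 were found. All 8 also passed the filter on low counts, which left 11030 genes for testing, but Cd276 passed it through the iHPC libraries alone. Cd80 (B7-1) and Cd86 (B7-2) encode the ligands that engage CD28, an activating receptor of T cells, and CTLA-4, an inhibitory one. Cd274 (PD-L1) and Pdcd1lg2 (PD-L2) encode the ligands of the inhibitory receptor PD-1, Icosl the ligand of ICOS, and Cd276 the B7 relative B7-H3, for which both inhibitory and activating roles have been described. Cd40 and Havcr2 are receptors rather than ligands in the strict sense. CD40 is the receptor through which helper T cells license antigen-presenting cells, and TIM-3, encoded by Havcr2, is an inhibitory receptor of T cells and myeloid cells whose ligands include galectin-9.

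The libraries came from spleens of 12 female mice aged 9.4 to 15.7 weeks, 6 TLR7.1 and 6 wild-type (WT) B6. TLR7.1 mice overexpress Tlr7, the endosomal sensor of single-stranded RNA, and the labels do not limit this to a cell type. From TLR7.1 spleens were sorted inflammatory hemophagocytes (iHPC), phagocytes of blood cells known to arise from Ly6C-high monocytes, red pulp macrophages (RPM), which clear aged red cells, and Ly6C+ monocytes (Mono). WT spleens gave RPM and Mono. That makes 5 groups of 6 libraries, each library being 500 cells from 1 mouse. All cells were live, CD45.2+, SiglecF- and Ly6G-. The iHPC gate was Ly6C- CD31hi VCAMlow F4/80low CD11b+, the RPM gate Ly6C- CD31low VCAMhi F4/80+ with CD11b absent or intermediate, and the Mono gate Ly6C+ Ccr2+ CD11b+. iHPC were sorted from TLR7.1 mice only, so for them genotype and population cannot be told apart.

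Total counts per library ran from 292507 to 1420486 in iHPC, 268275 to 1257240 in TLR7.1 RPM, 1157446 to 1719010 in TLR7.1 Mono, 95002 to 1511480 in WT RPM and 1209266 to 1932427 in WT Mono, and 3 of the 30 libraries held under 300000 counts. Levels are given as normalised CPM, a count on the usual per-million scale after adjustment of the library sizes, and comparisons of levels between genes as CPM per kilobase of exon. Tlr7 went with the genotype labels, at 907 to 1271, 497 to 1531 and 767 to 1183 CPM in TLR7.1 iHPC, RPM and Mono, against 107 to 384 and 215 to 366 CPM in WT RPM and Mono. The gates were visible in the RNA too: of 6 monocyte markers, 6 were lower in iHPC and in RPM than in Mono, and of 7 red pulp macrophage markers 6 were lower in iHPC than in RPM. Among the iHPC libraries, that of mouse 24261 stood apart. The 7 basophil and mast cell markers summed to 2.78 CPM in it, with 5 of the 7 at 0, and to 2536 to 4670 CPM in the other 5 iHPC libraries, with none at 0. The tests of iHPC were therefore also run with that library as the only iHPC library, a setting chosen after the data had been seen.

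Set against each other per kilobase, the 8 genes gave each population a profile of its own (the bar plot of length-adjusted levels). In iHPC, Pdcd1lg2 averaged 81.4 ± 12.9 CPM per kb (SD, n = 6), ahead of Cd274 at 66.5 ± 8.37 and Cd86 at 63.0 ± 21.1. These leading levels lay close together: Pdcd1lg2 was the highest of the 8 in 3 of 6 iHPC libraries, Cd86 in 2 and Cd274 in 1. With the longest transcript in place of the union of exons, Cd86 came to 90.9 CPM per kb in iHPC, next to Pdcd1lg2 at 92.3 and above Cd274 at 66.5. In RPM, Cd86 was the highest of the 8 in every library, with a mean of 132 ± 27.6 CPM per kb in TLR7.1 and 205 ± 36.6 in WT mice. In Mono, Cd40 was the highest in every library, with a mean of 78.7 ± 7.74 CPM per kb in TLR7.1 and 69.4 ± 20.6 in WT mice. The lowest genes were Cd80 and Icosl in iHPC, at 0.965 and 0.977 CPM per kb, and Cd276 in the other 4 groups.

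**Figure D1:**
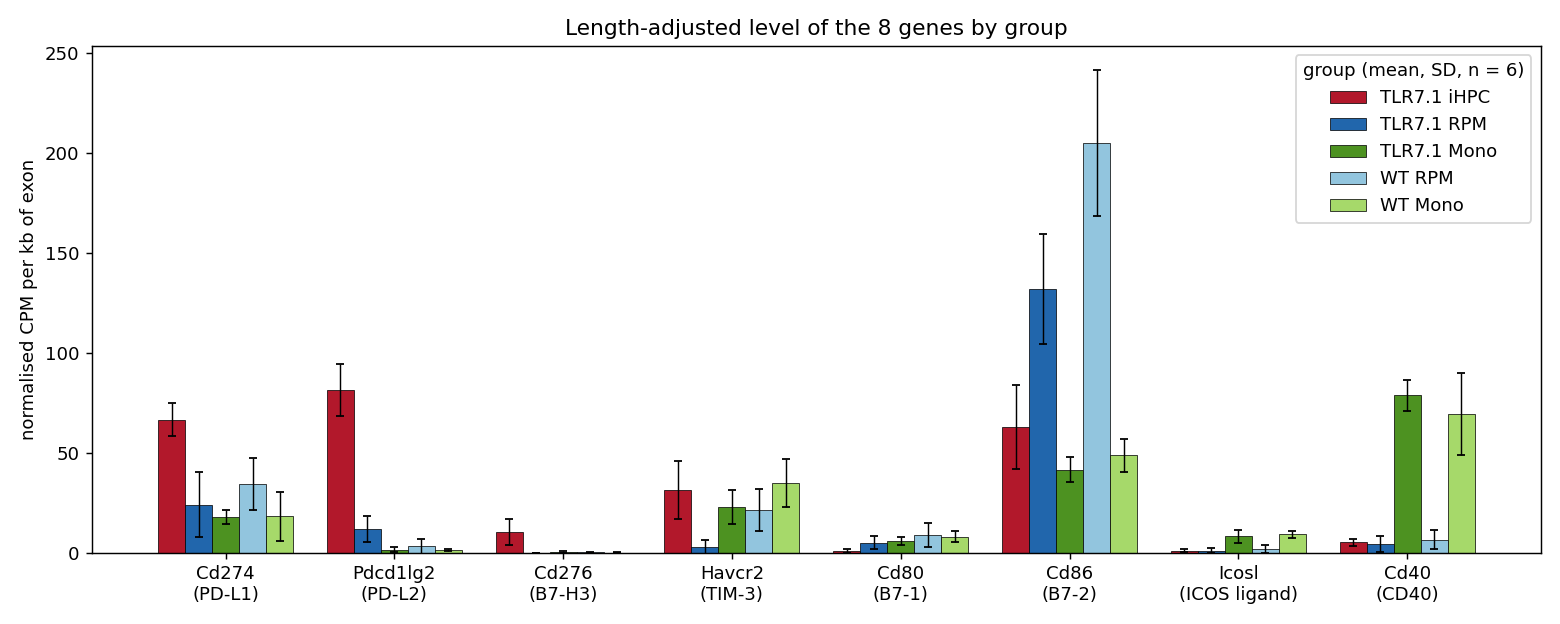
Mean normalised CPM per kb of exon (vertical axis) of the 8 genes in the 5 groups, with SD over 6 libraries. Pdcd1lg2 is the tallest bar of iHPC at 81.4, Cd86 the tallest of TLR7.1 and WT RPM at 131.8 and 204.9, and Cd40 the tallest of TLR7.1 and WT Mono at 78.7 and 69.4.

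The balance within the B7 family was described by the share of each gene in the summed CPM per kb of Cd80, Cd86, Cd274, Pdcd1lg2, Cd276 and Icosl. The PD-1 ligands Cd274 and Pdcd1lg2 together made up 57.1 to 81.1% of that sum in the iHPC libraries, with a median of 65.1%. They made up 8.9 to 34.5% in TLR7.1 RPM, 21.9 to 31.6% in TLR7.1 Mono, 9.62 to 21.7% in WT RPM and 11.2 to 36.4% in WT Mono. No iHPC library overlapped with a library of another group in this share. The CD28 ligands Cd80 and Cd86 made up 16.9 to 34.1% in iHPC, against 65.5 to 91.1% in TLR7.1 RPM and 57.1 to 68.2% in TLR7.1 Mono. The sums themselves were of like size in iHPC, at 223 ± 34.5 CPM per kb, in TLR7.1 RPM, at 174 ± 34.8, and in WT RPM, at 253 ± 48.0, and lower in TLR7.1 Mono, at 74.7 ± 9.91, and WT Mono, at 85.5 ± 18.5 (SD, n = 6 each). With the longest transcript the mean share of the PD-1 ligands was 61.3% in iHPC, against 15.6% for RPM and 19.8% for Mono of the TLR7.1 mice. These shares are a description without a test.

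**Figure D2:**
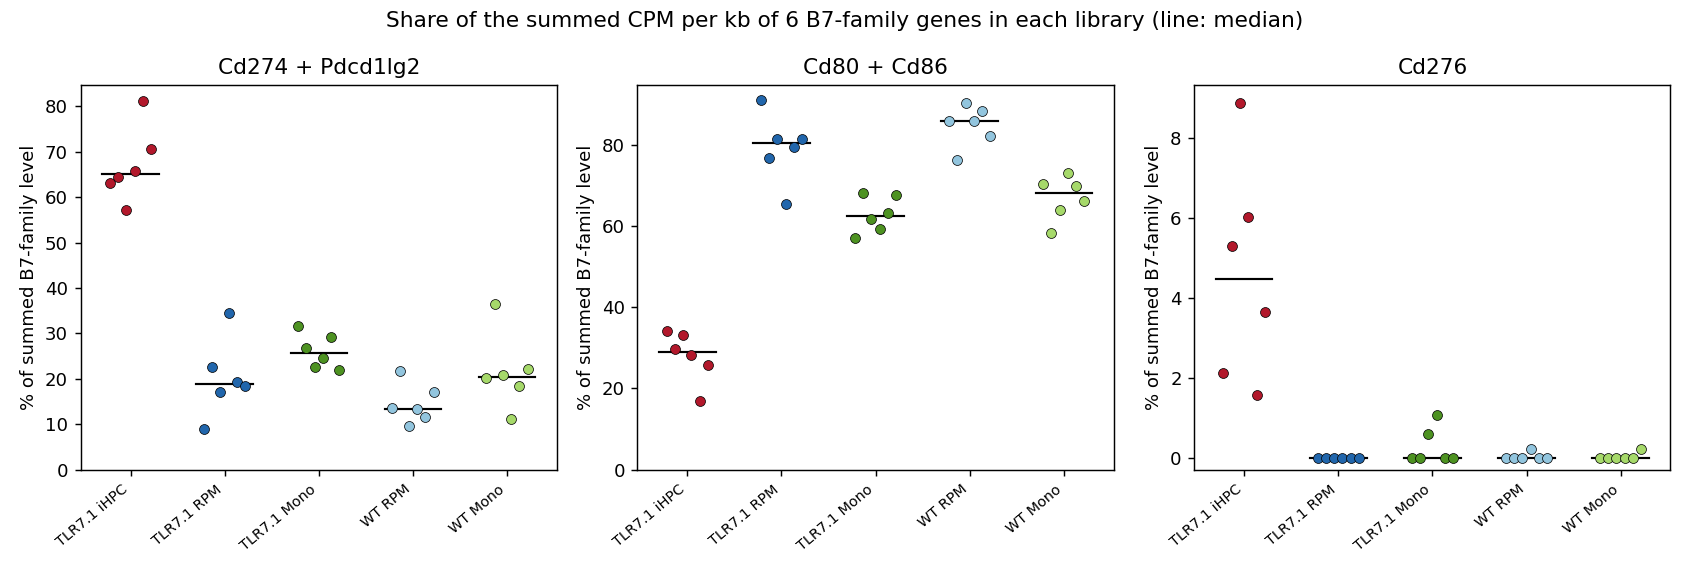
Share (percent, vertical axis) of the PD-1 ligands, the CD28 ligands and Cd276 in the summed CPM per kb of 6 B7-family genes, one point per library, with the group median as a line. The 6 iHPC libraries lie at 57.1 to 81.1% for the PD-1 ligands, above all 24 other libraries, and at 16.9 to 34.1% for the CD28 ligands, below all of them.

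Tested gene by gene, 6 of the 8 differed between iHPC and RPM of the same spleens, 4 higher and 2 lower (edgeR quasi-likelihood test on all 30 libraries, adjusted over all genes tested, called at adjusted p under 0.05). Of all genes tested, 27.1% were called in that comparison, 13.6% higher and 13.5% lower. Against Mono, 7 of 8 differed, 4 higher and 3 lower, where 38.7% of all genes were called, 19.3% higher and 19.4% lower. Cd276 is among the higher genes in both counts, and having passed the filter through iHPC alone it had to be. Without it, 5 of 7 were called against RPM, 3 higher and 2 lower, and 6 of 7 against Mono, 3 higher and 3 lower. The median log2 fold change of these 7 was 0.16 against RPM and 0.49 against Mono, beside 0.00 over all genes in each. Every called difference of iHPC from RPM and from Mono pointed the same way in each of the 3 collection dates taken alone. Since iHPC were compared with RPM and with Mono of the same mice, both comparisons share the iHPC libraries. In such sorted bulk samples, fewer cells that carry a transcript and less of it per cell cannot be told apart.

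**Figure D3:**
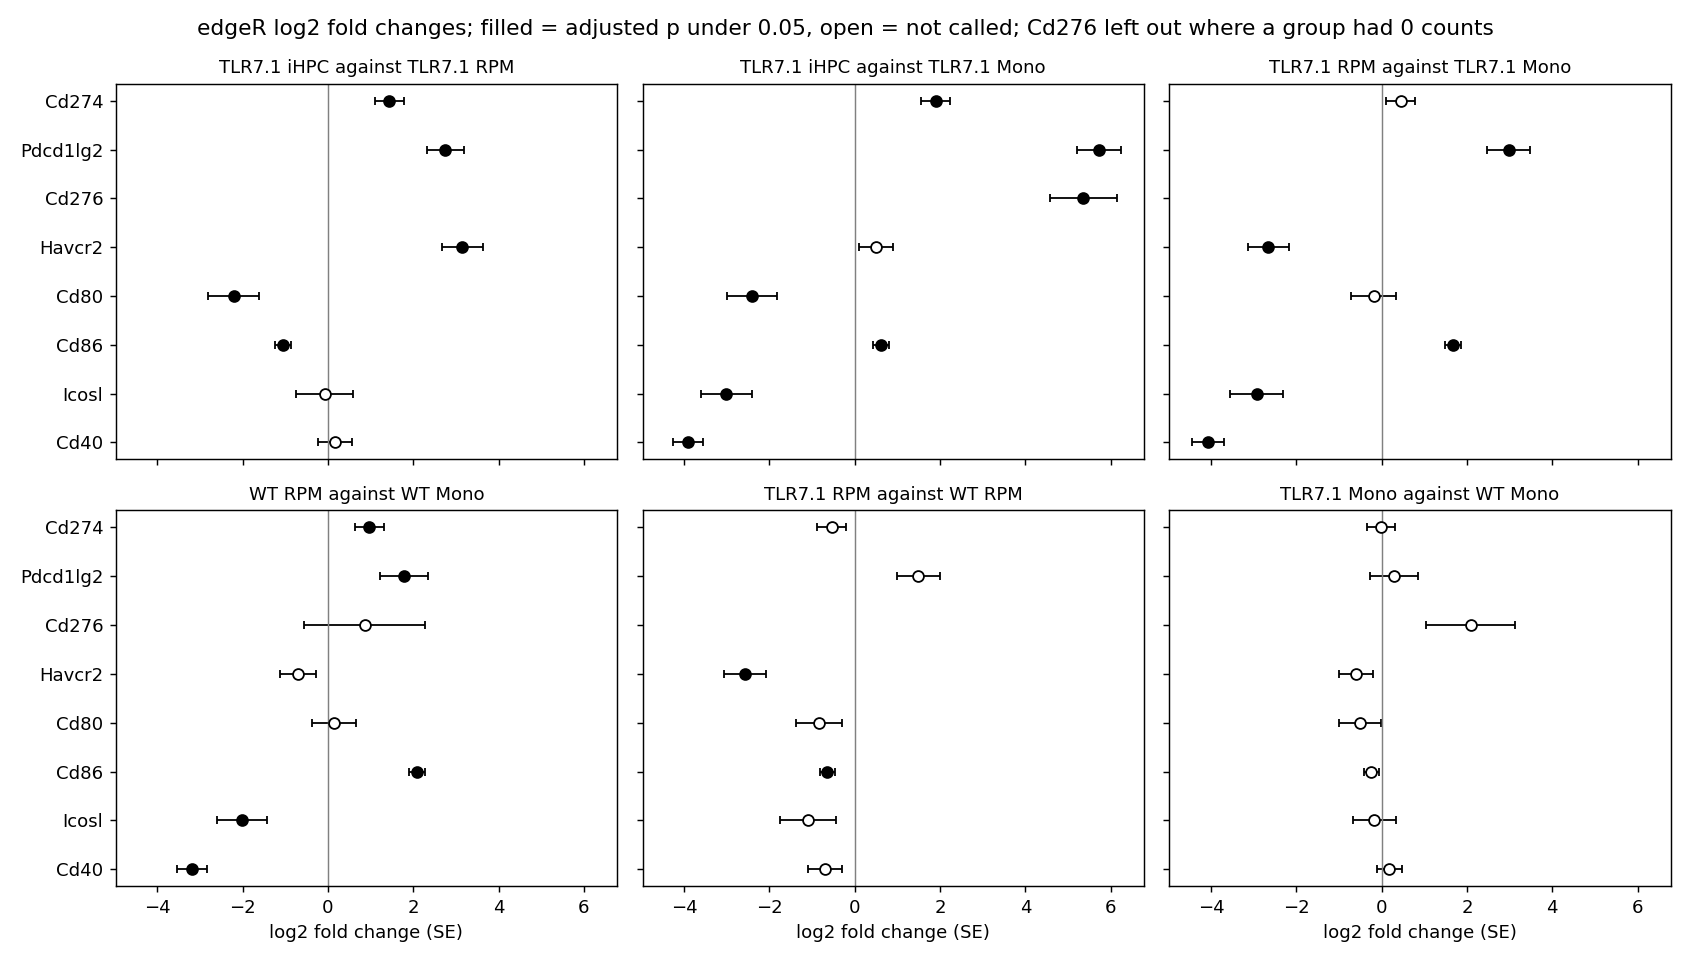
Log2 fold change of the 8 genes in the 6 comparisons of 2 groups (horizontal axis, bars are SE), filled where the adjusted p was under 0.05. Cd276 is left out where a group had 0 counts. Filled points of Cd274 and Pdcd1lg2 lie to the right in both iHPC panels, and none is filled for TLR7.1 Mono against WT Mono.

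The windows around the start sites of the 4 genes that were higher in iHPC than in RPM are shown because these genes moved together there. Each runs from 250 bases before to 50 after the start (RefSeq, GRCm38.p6), and 6 of the 8 genes had such a window. All were searched on both strands for the PU.1 core GAGGAA, an interferon response element (GAAA, any 2 bases, GAAA), a STAT site TTCNNNGAA, an AP-1 site TGANTCA and an NF-kB site (GGGA, any base, TTTCC), and matches are in capitals. Cd274 lies at chr19:29367188-29367487 on the plus strand and Pdcd1lg2 at chr19:29410669-29410968 on the plus strand, their starts 43481 bases apart. Cd276 lies at chr9:58554984-58555283 on the minus strand and Havcr2 at chr11:46454681-46454980 on the plus strand.
Cd274: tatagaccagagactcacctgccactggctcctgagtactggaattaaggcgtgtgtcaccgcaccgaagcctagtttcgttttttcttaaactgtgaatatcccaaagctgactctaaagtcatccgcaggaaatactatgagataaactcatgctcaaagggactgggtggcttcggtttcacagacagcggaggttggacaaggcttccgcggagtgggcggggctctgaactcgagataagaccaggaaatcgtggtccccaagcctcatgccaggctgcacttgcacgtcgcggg
Pdcd1lg2: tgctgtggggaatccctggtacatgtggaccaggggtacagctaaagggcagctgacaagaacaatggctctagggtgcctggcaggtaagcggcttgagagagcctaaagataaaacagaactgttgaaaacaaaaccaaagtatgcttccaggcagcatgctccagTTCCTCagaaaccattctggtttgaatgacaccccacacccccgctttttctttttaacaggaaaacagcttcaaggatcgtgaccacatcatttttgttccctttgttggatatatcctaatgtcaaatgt
Cd276: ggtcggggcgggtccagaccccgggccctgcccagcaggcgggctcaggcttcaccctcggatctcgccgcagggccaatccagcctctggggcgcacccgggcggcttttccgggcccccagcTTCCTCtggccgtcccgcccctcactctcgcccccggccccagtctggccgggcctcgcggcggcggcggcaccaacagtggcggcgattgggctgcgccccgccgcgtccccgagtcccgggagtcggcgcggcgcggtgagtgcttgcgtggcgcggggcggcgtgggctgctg
Havcr2: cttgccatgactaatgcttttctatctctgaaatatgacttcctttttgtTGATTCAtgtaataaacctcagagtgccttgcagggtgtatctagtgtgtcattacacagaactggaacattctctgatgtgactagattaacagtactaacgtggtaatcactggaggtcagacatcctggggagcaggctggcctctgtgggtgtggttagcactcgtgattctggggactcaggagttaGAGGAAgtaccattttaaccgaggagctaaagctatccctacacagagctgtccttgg

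The PU.1 core stood 82 bases before the start of Pdcd1lg2 and 126 before that of Cd276, both on the opposite strand, and 8 before that of Havcr2 on its own strand. Among 32851 promoter windows of this length, 28.3% held it. An AP-1 match stood 200 bases before the start of Havcr2 and another 42 before that of Cd80, and 7.81% of all windows held one. Cd274 and Icosl held none of the 5 motifs, and no window of the 6 held the interferon, STAT or NF-kB motif, which 3.44, 8.3 and 0.411% of all windows held. The Cd276 window held 78.3% G and C and 39 CpG, more G and C than 98.2% of all windows, and that of Icosl 68.0% and 26 CpG, more than 87.4%. Those of Cd274, Cd80, Pdcd1lg2 and Havcr2 had 52.7, 49.7, 46.0 and 45.3% G and C, at or below the median of 52.7%. These matches describe letters in a window and no bound site.

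PD-L2 was high in iHPC and low in all other groups (the plot of the 8 genes by library). Pdcd1lg2 had 121, 165 and 185 CPM as the lowest, median and highest of the 6 iHPC libraries, against 9.75, 17.2 and 42.6 CPM in TLR7.1 RPM and 0.616, 2.53 and 6.99 CPM in TLR7.1 Mono. All iHPC libraries lay above all RPM and all Mono libraries. The log2 fold change was 2.75 ± 0.435 (SE) against RPM (edgeR adjusted p = 8.13e-06) and 5.73 ± 0.509 against Mono (edgeR adjusted p = 4.86e-11), higher in 6 of 6 mice in both. WT RPM had 0, 3.77 and 18.0 CPM and WT Mono 0.654, 2.43 and 3.42 CPM. In level order TLR7.1 RPM followed iHPC, and its range overlapped with that of WT RPM, as did the ranges of all neighbours further down. Between RPM and Mono of the TLR7.1 mice the gene also differed (log2 2.98 ± 0.498, edgeR adjusted p = 8.71e-06), with no overlap. Between RPM and Mono of the WT mice the call (log2 1.79 ± 0.563, edgeR adjusted p = 0.00943) was fragile: RPM were higher in only 3 of 6 mice. It was lost with the mouse as a replicate block (log2 1.34, adjusted p = 0.14), in limma voom with the mouse as a random block (log2 1.27, adjusted p = 0.0977) and without the RPM library of mouse 24117 (log2 0.94, adjusted p = 0.25), and on 2 of the 3 collection dates the direction was not the same. Within dates it ran from -1.81 to 2.40 on the log2(CPM + 1) scale.

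**Figure D4:**
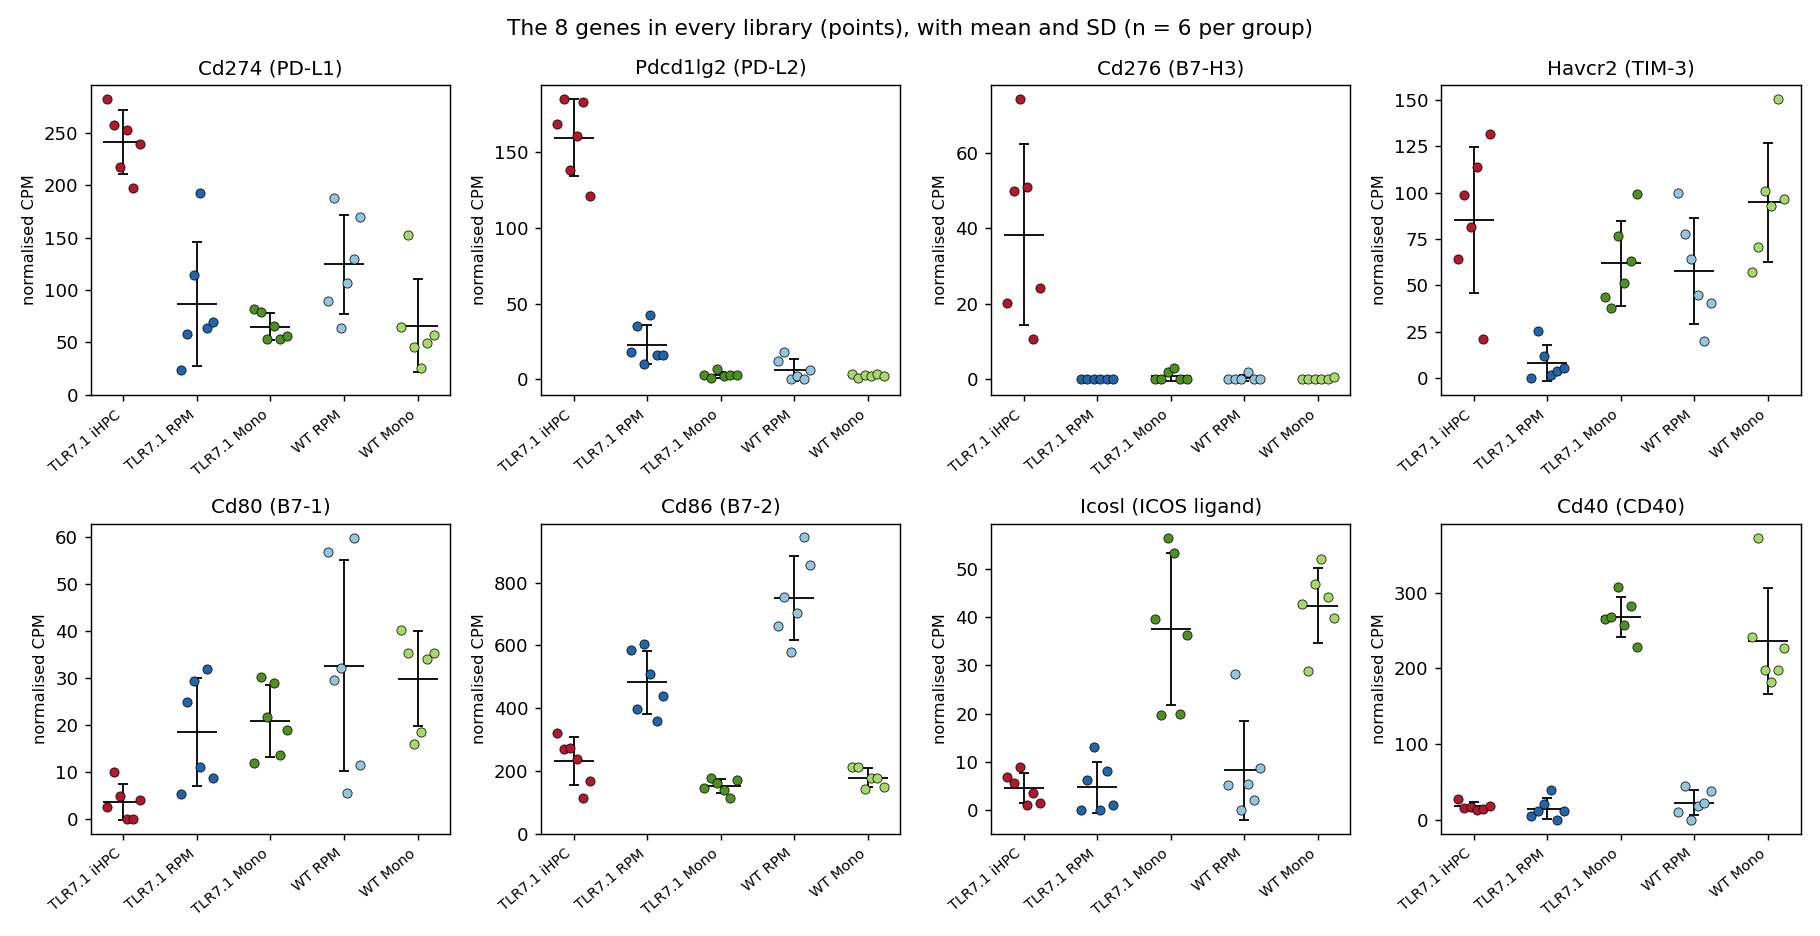
Normalised CPM (vertical axis, own scale per gene) of the 8 genes in all 30 libraries, one point per library, with group mean and SD (n = 6). The 6 iHPC libraries lie above every other library for Cd274, Pdcd1lg2 and Cd276, and the Mono libraries above every other library for Cd40.

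PD-L1 differed less, from a higher level elsewhere. Cd274 had 197, 246 and 282 CPM in iHPC as the lowest, median and highest, against 23.4, 66.7 and 192 CPM in TLR7.1 RPM and 53.2, 60.5 and 82.0 CPM in TLR7.1 Mono. The lowest iHPC library, that of mouse 24380 with 197.2 CPM, lay just above the highest RPM library, that of mouse 24261 with 192.3 CPM. The log2 fold change was 1.44 ± 0.339 against RPM (edgeR adjusted p = 0.00137) and 1.90 ± 0.336 against Mono (edgeR adjusted p = 2.74e-05), higher in 6 of 6 mice in both. WT RPM had 64.2, 118 and 187 CPM and WT Mono 25.8, 53.1 and 152 CPM, all below the iHPC libraries and overlapping with each other. By mean level WT RPM came after iHPC, then TLR7.1 RPM, WT Mono and TLR7.1 Mono, each overlapping with the next. RPM exceeded Mono in 6 of 6 WT mice (log2 0.97 ± 0.341, edgeR adjusted p = 0.0194), but in 4 of 6 TLR7.1 mice (log2 0.45 ± 0.339, edgeR adjusted p = 0.283). The WT call was lost without any of 5 single libraries, the RPM libraries of mice 24117 and 24416 and the Mono libraries of mice 24323, 24214 and 24415, at log2 values of 0.77 to 0.87. Per kilobase the level of PD-L2 was 1.24 ± 0.267 times that of PD-L1 in iHPC, 0.667 ± 0.494 times in TLR7.1 RPM and 0.09 ± 0.0788 times in TLR7.1 Mono (SD, n = 6 each).

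Cd276, which encodes B7-H3, was found in iHPC and hardly elsewhere. It had 10.6, 37.0 and 74.4 CPM as the lowest, median and highest in iHPC, from 3 to 91 counts per library and 254 counts in all. TLR7.1 RPM held 0 counts in all 6 libraries, which allows up to 0.665 CPM over the group, and TLR7.1 Mono held 8 counts, in 2 libraries. WT RPM and WT Mono held 1 count each. The limit covers counting error only. iHPC were at least 61.9-fold higher than RPM by pooled counts, against a floor of 3 counts over the group. Against Mono the pooled ratio was 47.8 with a 95% counting interval of 23.9 to 111.9, and the fitted log2 fold change 5.36 ± 0.79. Both differences passed the test, which is no independent support, since the gene could enter it only through its iHPC counts. Cd276 was higher in 6 of 6 mice in both comparisons. Within iHPC it spread widely, with an SD of 62.7% of the mean, beside 12.6% for Cd274 and 15.9% for Pdcd1lg2, and the lowest library, that of mouse 24380, was also the shallowest iHPC library. Cd276 overlaps Gm10657 and Cd274 overlaps AC119228.1 on the opposite strand in GENCODE M21; the strand setting of the counting is not given in the sources used here, so reads of such partners cannot be told apart.

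Havcr2, the TIM-3 gene, was low in RPM of TLR7.1 mice rather than high in iHPC alone. It had 21.1, 90.2 and 132 CPM in iHPC, 0, 4.67 and 25.6 CPM in TLR7.1 RPM and 37.6, 57.3 and 99.3 CPM in TLR7.1 Mono, as lowest, median and highest. The iHPC range met that of RPM through a single low iHPC library, that of mouse 24380 with 6 counts. iHPC were higher than RPM in 6 of 6 mice (log2 3.15 ± 0.483, edgeR adjusted p = 5.08e-06), while the difference from Mono did not pass the test (log2 0.49 ± 0.402, edgeR adjusted p = 0.35). TLR7.1 RPM were lower than TLR7.1 Mono without overlap (log2 -2.66 ± 0.478, edgeR adjusted p = 2.62e-05). WT RPM had 19.9, 54.6 and 99.8 CPM and WT Mono 57.3, 94.7 and 151 CPM, and their difference did not pass (log2 -0.70 ± 0.421, edgeR adjusted p = 0.173). In level order WT Mono, iHPC, TLR7.1 Mono and WT RPM overlapped with their neighbours, and TLR7.1 RPM came last.

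The CD28 ligands were lower in iHPC than in RPM. Cd86 had 113, 255 and 322 CPM in iHPC, against 359, 473 and 606 CPM in TLR7.1 RPM and 114, 154 and 177 CPM in TLR7.1 Mono, as lowest, median and highest. All iHPC libraries lay below all RPM libraries (log2 -1.05 ± 0.182, edgeR adjusted p = 3.49e-05, lower in 6 of 6 mice). Against Mono iHPC were higher (log2 0.62 ± 0.182, edgeR adjusted p = 0.00655), but the ranges overlapped and only 4 of 6 mice showed that direction. WT RPM had the highest Cd86 of all groups, at 578, 729 and 946 CPM, against 141, 177 and 213 CPM in WT Mono. RPM exceeded Mono without overlap in both genotypes (log2 1.67 ± 0.184 with edgeR adjusted p = 3.79e-09 in TLR7.1 mice, and 2.08 ± 0.186 with 3.67e-11 in WT mice). Cd80 was a low gene throughout. It had 0, 3.28 and 9.98 CPM in iHPC, from 0 to 9 counts per library, against 5.21, 17.9 and 31.9 CPM in TLR7.1 RPM and 11.9, 20.2 and 30.2 CPM in TLR7.1 Mono. iHPC were lower than RPM (log2 -2.21 ± 0.602, edgeR adjusted p = 0.00538) and lower than Mono (log2 -2.40 ± 0.584, edgeR adjusted p = 0.00132), in 6 of 6 mice each, with some overlap against RPM and none against Mono. WT RPM had 5.40, 30.9 and 59.8 CPM and WT Mono 15.9, 34.6 and 40.2 CPM. Neither genotype showed a called difference of Cd80 between RPM and Mono (log2 -0.19, edgeR adjusted p = 0.792 in TLR7.1 mice, and 0.14, adjusted p = 0.855 in WT mice). By mean level the order was WT RPM, TLR7.1 RPM, iHPC, WT Mono and TLR7.1 Mono for Cd86, where only TLR7.1 RPM and iHPC did not overlap as neighbours. For Cd80 it was WT RPM, WT Mono, TLR7.1 Mono, TLR7.1 RPM and iHPC, with overlap between all neighbours.

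Icosl and Cd40 followed the monocytes. Icosl had 0.925, 4.53 and 8.99 CPM in iHPC and 0, 3.64 and 13.0 CPM in TLR7.1 RPM, against 19.7, 38.0 and 56.5 CPM in TLR7.1 Mono. Both phagocytes lay below Mono without overlap (log2 -3.01 ± 0.606, edgeR adjusted p = 0.000157 for iHPC, and -2.93 ± 0.622, adjusted p = 0.000229 for RPM). Between iHPC and RPM the log2 fold change was -0.08 ± 0.677 (edgeR adjusted p = 0.95), and its sign turned under several settings. WT RPM had 0, 5.28 and 28.3 CPM, the highest from mouse 24117, against 28.8, 43.5 and 52.0 CPM in WT Mono (log2 -2.01 ± 0.582, edgeR adjusted p = 0.00492). Cd40 had 12.0, 15.9 and 27.8 CPM in iHPC and 0, 10.8 and 38.5 CPM in TLR7.1 RPM, against 228, 266 and 308 CPM in TLR7.1 Mono. The gap to Mono was wide in both (log2 -3.91 ± 0.356, edgeR adjusted p = 8.64e-11 for iHPC, and -4.07 ± 0.369, adjusted p = 5.2e-11 for RPM), with no overlap and the same direction in 6 of 6 mice. Between iHPC and RPM it did not pass the test (log2 0.16 ± 0.394, edgeR adjusted p = 0.816). WT RPM had 0, 19.96 and 45.0 CPM, against 182, 212 and 373 CPM in WT Mono (log2 -3.19 ± 0.359, edgeR adjusted p = 6.29e-09). By mean level Cd40 ran from TLR7.1 Mono and WT Mono, which overlapped, to WT RPM, iHPC and TLR7.1 RPM, which overlapped among themselves and not with Mono. Icosl ran from WT Mono through TLR7.1 Mono, WT RPM and TLR7.1 RPM to iHPC, with overlap between all neighbours.

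Counted over the 8 genes, RPM and Mono differed in 5 in each genotype. In TLR7.1 mice 2 were higher in RPM (Cd86 and Pdcd1lg2) and 3 lower (Cd40, Icosl and Havcr2), where 46.6% of all genes were called, 23.9% higher and 22.6% lower. In WT mice 3 were higher (Cd86, Cd274 and Pdcd1lg2) and 2 lower (Cd40 and Icosl), where 46.2% of all genes were called, 23.7% higher and 22.5% lower. Over the 7 genes without Cd276, which had 0 counts in TLR7.1 RPM and 1 each in WT RPM and WT Mono, the median log2 fold change was -0.19 in TLR7.1 mice, beside -0.03 over all genes, and 0.14 in WT mice, beside -0.02.

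Few of the 8 differed between the genotypes. Between TLR7.1 Mono and WT Mono 0 of the 8 were called by edgeR, 0 had an unadjusted p under 0.05, and DESeq2 and limma voom called 0, where edgeR called 2.1% of all genes. The median log2 fold change of the 7 genes without Cd276 was -0.17, beside -0.02 over all genes, and Havcr2 stood at -0.61 ± 0.399 (edgeR adjusted p = 0.953). The 2 libraries of TLR7.1 Mono with Cd276 counts held 3 and 5, and the single WT Mono library 1. Neutrophil markers moved with the genotype in Mono, 5 of 5 tested higher and summing to 117 to 1581 CPM in TLR7.1 Mono, against 1.55 to 7.85 CPM in WT Mono with Ly6g, Camp and Ngp at 0; their part in these values was not tested.

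Between TLR7.1 RPM and WT RPM 2 of the 8 were called, both lower, where 8.25% of all genes were called and 3.77% were lower, and 3 had an unadjusted p under 0.05. Havcr2 was lower in TLR7.1 RPM (log2 -2.57 ± 0.495, edgeR adjusted p = 0.00102), with 5 of its 6 libraries at or under 11.9 CPM and all 6 WT libraries at or above 19.9 CPM. Cd86 was lower as well (log2 -0.64 ± 0.18, edgeR adjusted p = 0.0229), with overlapping ranges. Both calls were lost when the fit held only the 12 libraries compared (Havcr2 log2 -2.64, adjusted p = 0.0544; Cd86 log2 -0.62, adjusted p = 0.0714). That of Cd86 was also lost without the TLR7.1 library of mouse 24107 or 24380 or the WT library of mouse 24415 or 24416 (log2 -0.53 to -0.59). Pdcd1lg2 leaned the other way, with log2 1.49 ± 0.50 and edgeR adjusted p = 0.059, and passed in DESeq2 (adjusted p = 0.0345) and in limma voom (adjusted p = 0.0371). It also passed without the WT library of mouse 24117 (log2 2.35, adjusted p = 0.00667) or the TLR7.1 library of mouse 24308 or 24380. The median over the 7 genes without Cd276 was -0.70, beside -0.01 over all genes. B cell markers overlapped between the genotypes, summing to 825 to 3201 CPM in TLR7.1 RPM, against 246 to 2008 CPM in WT RPM. Of 9 tested, 1 was called higher, and none was at 0 in all libraries of either group. The WT RPM library of mouse 24323 had 6 of them at 0. Of 9 red cell precursor markers, 3 were called higher in TLR7.1 RPM. Genes of the dissociation response, 4 of 10 called lower, summed to 337 to 917 CPM in TLR7.1 RPM, against 1002 to 1638 CPM in WT RPM, and did not overlap. The part of these cells and of this response in the RPM results was not tested.

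Whether the genotype effect differed between RPM and Mono was tested as an interaction. By edgeR 0 of the 8 were called, where 0.689% of all genes were, and 1 had an unadjusted p under 0.05. This gene was Havcr2, with a difference of -1.95 ± 0.632 on the log2 scale (edgeR adjusted p = 0.159), and it was called without the TLR7.1 RPM library of mouse 24107 (log2 -2.82, adjusted p = 0.0233). DESeq2 and limma voom called 0 of the 8. The lower Havcr2 of TLR7.1 RPM is therefore not shown to differ from the genotype difference of Mono. The median over the 7 genes without Cd276 was -0.52, beside 0.00 over all genes.

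In library 24261 the 4 genes that rose against RPM stood within the range of the other iHPC libraries (the bar plot of iHPC libraries). It had 253 CPM of Cd274, 161 CPM of Pdcd1lg2, 50.9 CPM of Cd276 and 114 CPM of Havcr2, with basophil and mast cell markers at 2.78 CPM. The same markers summed to 0 to 10.4 CPM in TLR7.1 RPM, with Cpa3, Hdc, Gata2 and Ms4a2 at 0, and to 1.21 to 10.8 CPM in TLR7.1 Mono, with Cpa3, Fcer1a and Ms4a2 at 0. With this library as the only iHPC library, the genes called in the main test kept their direction. Against RPM the log2 fold changes were 2.81 for Pdcd1lg2, 3.57 for Havcr2, 1.54 for Cd274 and -0.99 for Cd86. Cd80 had 0 counts in this library and Cd276 0 counts in RPM, so no size is given for them. Against Mono they were 5.74 for Pdcd1lg2, 5.76 for Cd276, 1.95 for Cd274 and 0.64 for Cd86. Cd40 stood at -4.48 and Icosl at -5.20, the latter from 1 count. Cd80 was again at 0 counts. This fit assumes the lone library to vary like the other groups. Its filter was run anew and kept another set of genes, so its calls cannot be set beside those of the main fit. The library is also among the 6 iHPC libraries of the main test and gives no independent support. Its low sum holds for basophil and mast cell markers only. Neutrophil markers summed to 823.5 CPM in it, within a range of 18.8 to 1123 CPM over the 6 iHPC libraries. Their part in these values was not tested.

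**Figure D5:**
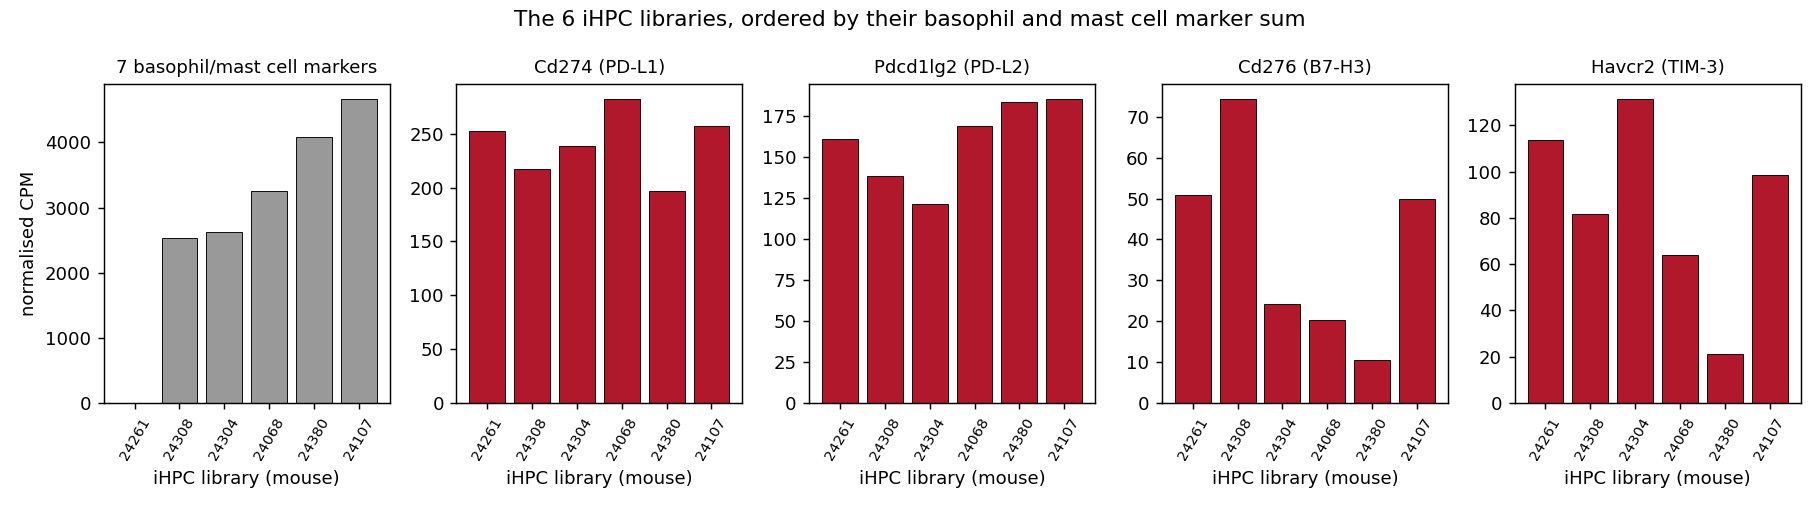
Normalised CPM (vertical axis, own scale per panel) of 7 summed basophil and mast cell markers and of Cd274, Pdcd1lg2, Cd276 and Havcr2 in the 6 iHPC libraries, ordered by the marker sum. The library of mouse 24261 has 2.78 CPM of the markers, against 2536 to 4670 in the other 5, and 253, 161, 50.9 and 114 CPM of the 4 genes.

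Markers of other cells moved with these comparisons as well. B cells and dendritic cells carry several of the 8 transcripts. B cell markers summed to 602 to 1205 CPM in iHPC, 825 to 3201 CPM in TLR7.1 RPM and 571 to 799 CPM in TLR7.1 Mono, with 5 of 9 tested lower and 0 higher in iHPC than in RPM. Dendritic cell markers summed to 320 to 481 CPM in iHPC, 212 to 392 CPM in TLR7.1 RPM and 157 to 536 CPM in TLR7.1 Mono. These ranges overlapped, with Siglech, Ccl22 and Ccl17 at 0 in all 3, but single markers moved in both directions. Of 7 tested, Batf3 was called higher and Flt3 and Clec9a lower in iHPC than in RPM. Against Mono, Batf3 and Xcr1 were higher and Cd209a and Flt3 lower. T cell markers summed to 4.63 to 127 CPM in iHPC, with Cd3e, Cd5 and Trbc2 at 0, 23.3 to 1449 CPM in TLR7.1 RPM and 19.1 to 59.9 CPM in TLR7.1 Mono. Red cell precursor markers summed to 962 to 3247 CPM in iHPC, 1876 to 4441 CPM in TLR7.1 RPM and 26.0 to 333 CPM in TLR7.1 Mono. Neutrophil markers summed to 18.8 to 1123 CPM in iHPC, 8.67 to 420 CPM in TLR7.1 RPM and 117 to 1581 CPM in TLR7.1 Mono. Of 5 tested, 0 were higher and 0 lower in iHPC than in RPM, and 0 higher and 1 lower than in Mono. Genes of the dissociation response summed to 1212 to 1719 CPM in iHPC, 337 to 917 CPM in TLR7.1 RPM and 3483 to 5091 CPM in TLR7.1 Mono. The part of these cells and of this response in the results was not tested.

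Genes that act with the 8 were read next, from lists chosen with earlier results of these data known. Behind each count stand the shares over all genes, 13.6% higher and 13.5% lower in iHPC than in RPM and 19.3% higher and 19.4% lower than in Mono, with a median log2 fold change of 0.00 in both. With library 24261 as the only iHPC library, the named genes kept their direction in 28 of 28 called differences. That library is among the 6 behind those calls, and the genes were named for large called changes. The kept direction is therefore no independent support. CD40 passes its signal on through TRAF adaptors, the inhibitors of apoptosis Birc2 and Birc3 and the kinase NIK, encoded by Map3k14. Of 10 such genes, 5 were higher and 0 lower in iHPC than in RPM, with a median log2 fold change of 0.88, beside 0.00 over all genes, although Cd40 itself did not differ between these populations. Map3k14 averaged 182 CPM in iHPC, against 33.7 CPM in TLR7.1 RPM (log2 2.54 ± 0.393, edgeR adjusted p = 5.65e-06). Traf1, an adaptor induced by NF-kB signals, averaged 139 CPM in iHPC, against 18.4 CPM in TLR7.1 RPM (log2 2.69 ± 0.631, edgeR adjusted p = 0.00141). Birc3 and Birc2 rose by 1.02 and 1.12 on the log2 scale. Against Mono 3 of the 10 were higher and 2 lower in iHPC, with a median of -0.06. Birc2 was higher (log2 1.65 ± 0.27) and Birc3 lower (log2 -0.66 ± 0.219, edgeR adjusted p = 0.0158). RPM were low for this list in both genotypes. Against Mono, 0 were higher and 5 lower in TLR7.1 RPM (median -0.89), and 0 higher and 3 lower in WT RPM (median -0.81). Of all genes, 23.9 and 23.7% were higher and 22.6 and 22.5% lower there. With library 24261 alone, the log2 fold changes against RPM were 2.93 for Map3k14, 3.08 for Traf1, 1.01 for Birc3 and 1.19 for Birc2. Against Mono they were 1.69 for Birc2 and -0.71 for Birc3. Between the genotypes 0 of the 10 were called in RPM and 0 in Mono.

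The ligands of TIM-3 and the other TIM genes formed a list of 7, of which 5 were tested. Lgals9, which encodes galectin-9, averaged 63.3 CPM in iHPC, against 329 CPM in TLR7.1 RPM and 541 CPM in TLR7.1 Mono (log2 -2.50 ± 0.295, edgeR adjusted p = 4.66e-08 against RPM, and -3.21 ± 0.298, adjusted p = 1.29e-10 against Mono). Ceacam1, a further TIM-3 partner, averaged 42.6 CPM in iHPC, against 6.15 CPM in TLR7.1 RPM and 331 CPM in TLR7.1 Mono. It was higher than in RPM (log2 3.01 ± 0.544, edgeR adjusted p = 6.14e-05) and lower than in Mono (log2 -2.97 ± 0.392, adjusted p = 2.06e-07). Timd4, the receptor TIM-4 that binds phosphatidylserine on dying cells, held 0 counts in all 6 iHPC libraries and averaged 140.0 CPM in TLR7.1 RPM (edgeR adjusted p = 2.35e-11). In all, 1 of the 5 was higher and 2 were lower in iHPC than in RPM, and 0 higher and 2 lower than in Mono. With library 24261 alone, Ceacam1 stood at log2 1.54 against RPM and -4.49 against Mono, and Lgals9 at -2.80 and -3.56. Bag6 was higher in TLR7.1 RPM than in TLR7.1 Mono (log2 0.61 ± 0.244, edgeR adjusted p = 0.0401) and was called in neither comparison of iHPC. None of the 5 was called between the genotypes in RPM or Mono.

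Proteins that set how long B7 proteins stay at the surface gave 4 tested genes. In iHPC 2 were higher and 1 lower than in RPM, and 2 higher and 1 lower than in Mono. With library 24261 alone, the log2 fold changes against RPM were 1.26 for Cd83, 0.76 for March1 and -1.40 for March8. Against Mono they were 2.30 for Cd83, 2.24 for March8 and -1.61 for Cmtm6. March1 and March8 encode ubiquitin ligases that remove CD86, CD83 opposes MARCH1, and CMTM6 protects PD-L1. In iHPC against RPM, Cd83 was higher (230.2 against 116 CPM, log2 0.97 ± 0.30, edgeR adjusted p = 0.014), as was March1 (333 against 188 CPM, log2 0.84 ± 0.175, edgeR adjusted p = 0.000368). March8 was lower (41.8 CPM in iHPC, against 134 CPM in RPM, log2 -1.67 ± 0.388, edgeR adjusted p = 0.00128). Cmtm6 did not differ at the threshold between iHPC and RPM (log2 0.39 ± 0.251, edgeR adjusted p = 0.27) and was lower in iHPC than in Mono (log2 -1.23 ± 0.241, edgeR adjusted p = 0.000103). Cd83 was lower in TLR7.1 than in WT mice in both populations, at 116 CPM in TLR7.1 RPM against 450.1 CPM in WT RPM (log2 -1.94 ± 0.306, edgeR adjusted p = 0.000133), and at 55.8 CPM in TLR7.1 Mono against 145 CPM in WT Mono (log2 -1.37 ± 0.299, edgeR adjusted p = 0.00543).

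The remaining lists were thinner. Of 8 other B7 and butyrophilin relatives 3 were tested, and 0 were higher and 1 lower in iHPC than in RPM and likewise than in Mono. The lower gene against RPM was Vsig4, the complement receptor of resident macrophages, named after its values were seen. Vsig4 averaged 17.6 CPM in TLR7.1 RPM and 17.9 CPM in WT RPM, with 0 counts in iHPC and in both Mono groups (edgeR adjusted p = 0.000339 for iHPC against RPM, and 5.83e-05 and 6.96e-05 for RPM against Mono of TLR7.1 and WT mice). Cd200 was higher in RPM than in Mono of both TLR7.1 mice (log2 4.26 ± 1.05, edgeR adjusted p = 0.00118) and WT mice (log2 2.96 ± 0.999, edgeR adjusted p = 0.0148). Cd200, the ligand of an inhibitory myeloid receptor, averaged 5.06 CPM in iHPC, 21.0 CPM in TLR7.1 RPM and 0.987 CPM in TLR7.1 Mono. Vsir, which encodes the inhibitory ligand VISTA, averaged 244 CPM in iHPC, against 424 CPM in TLR7.1 Mono (log2 -0.82 ± 0.186, edgeR adjusted p = 0.000661). Vsir was also lower in TLR7.1 RPM than in WT RPM, at 329 against 499 CPM (log2 -0.60 ± 0.19, edgeR adjusted p = 0.0431). Of 9 further co-stimulatory molecules, mostly of the TNF family, 5 were tested. Tnfsf14, which encodes LIGHT, averaged 8.02 CPM in iHPC with 0 counts in TLR7.1 RPM (edgeR adjusted p = 0.00204), and 25.5 CPM in TLR7.1 Mono. Tnfsf15, which encodes TL1A, averaged 23.4 CPM in iHPC and 4.01 CPM in TLR7.1 RPM, against 0.991 CPM in TLR7.1 Mono (log2 4.34 ± 1.03, edgeR adjusted p = 0.00107 for iHPC against Mono). Cd48, the ligand of 2B4, averaged 771 CPM in iHPC, against 549 CPM in TLR7.1 Mono (log2 0.49 ± 0.158, edgeR adjusted p = 0.013). Of these, 1 was higher and 0 lower in iHPC than in RPM, and 2 were higher and 1 lower than in Mono. Tnfsf9, which encodes the ligand of CD137, averaged 9.31 CPM in iHPC and 4.52 CPM in TLR7.1 RPM, against 50.5 CPM in TLR7.1 Mono (log2 -2.40 ± 0.644, edgeR adjusted p = 0.00329 for iHPC against Mono, and -3.24 ± 0.697, adjusted p = 0.000268 for RPM against Mono). Of 5 nectin-family ligands 3 were tested, 1 higher and 0 lower in iHPC than in RPM and 0 called against Mono. Nectin4 averaged 16.9 CPM in iHPC and was higher in RPM than in Mono, at 31.4 against 9.41 CPM in TLR7.1 mice (log2 1.60 ± 0.64, edgeR adjusted p = 0.0391) and 36.9 against 9.58 CPM in WT mice (log2 1.99 ± 0.635, edgeR adjusted p = 0.0104). Pvr, a ligand of TIGIT and CD226, averaged 19.0 CPM in iHPC, against 3.27 CPM in TLR7.1 RPM (log2 2.40 ± 0.617, edgeR adjusted p = 0.0033). Pvr was lower in TLR7.1 RPM than in WT RPM, which averaged 20.1 CPM (log2 -2.34 ± 0.643, edgeR adjusted p = 0.0199). With library 24261 alone, Pvr stood at log2 2.48 against RPM. Against Mono, Vsir stood at -0.86, Tnfsf15 at 4.01, Cd48 at 0.67 and Tnfsf9 at -4.15. Tnfsf14 is left out for its 0 counts in TLR7.1 RPM, and Vsig4 for its 0 counts in iHPC.

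The receptors on the T cell side, 10 genes of which 3 were tested, gave 2 lower and 0 higher in iHPC than in RPM, and likewise than in Mono, where 13.5 and 19.4% of all genes were lower. Icos, the partner of ICOS ligand, averaged 0.112 CPM in iHPC, with 1 count in all, against 43.9 CPM in TLR7.1 RPM and 2.24 CPM in TLR7.1 Mono. WT RPM averaged 83.8 CPM and WT Mono 0.109 CPM, and RPM differed from Mono in both genotypes (edgeR adjusted p = 6.13e-06 in TLR7.1 and 3.28e-09 in WT mice). T cell markers moved the same way in the comparisons with RPM. Between iHPC and Mono, Icos was lower in iHPC (log2 -3.15 ± 1.19, edgeR adjusted p = 0.0338), while 0 T cell markers were called. Of 6 tested, 5 were lower in iHPC than in RPM, 5 were higher in RPM than in Mono of TLR7.1 mice and 3 in WT mice, where they summed to 51.6 to 334 CPM in WT RPM, against 15.7 to 63.3 CPM in WT Mono. Between TLR7.1 and WT RPM, Icos was lower by mean, while the T cell marker sum was higher by median, at 259 against 107 CPM. Neither Icos nor a T cell marker was called there. The part of T cells in the Icos values was not tested. Btla averaged 10.5 CPM in iHPC, against 55.1 CPM in TLR7.1 RPM and 76.0 CPM in TLR7.1 Mono (log2 -2.69 ± 0.68, edgeR adjusted p = 0.00281 against RPM, and -3.08 ± 0.673, adjusted p = 0.000433 against Mono).

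For each of the genes other than Cd80, the 3 genes with the most similar level across the 30 libraries were found by Pearson's r of log2(CPM + 1) among 8849 candidates. The libraries share their groups, so these values mostly describe which groups were high, and no p is given. Cd276 resembled Ifnlr1 (r = 0.96), the receptor chain for type III interferon, Il12b (r = 0.95) and Cxcl14 (r = 0.95). Pdcd1lg2 resembled Fcrl5 (r = 0.93), Bcl2l15 (r = 0.90) and Mllt3 (r = 0.88), and Cd274 resembled Jmjd1c (r = 0.86), Zfp770 and Ccdc107 (r = 0.83 each). Cd86 resembled Wdr75 (r = 0.95), Ccr3 and Mpzl1 (r = 0.94 each). Cd40 went with Mia2 (r = 0.94), Arl6ip5 and Arhgap9 (r = 0.92 each), and Icosl with Prr14 (r = 0.90), Sh3bp1 (r = 0.89) and Cyp27a1 (r = 0.88). Havcr2 went with Mfng (r = 0.84), Zc3h10 (r = 0.81) and Rcbtb2 (r = 0.80).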

How the data were processed

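RNA of 500 sorted spleen cells per library was amplified as full-length cDNA (SMART-Seq v4) and made into Nextera XT libraries, per the labels' protocols. The values the authors deposited are whole-number counts per gene identifier in 1 table of 30 libraries. Tools listed in the submitters' processing notes, with no role, are TopHat, Bowtie, HTSeq 0.4.1, SAMtools, Picard, FastQC and CASAVA 1.8.2, with the genome build NCBIM37. The strand setting is not given in the sources used here. Of 37991 identifiers 32919 took a symbol from GENCODE M21, and these hold 99.11% of all counts. Exon lengths came from the same annotation.

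Genes were filtered with filterByExpr, scaled by TMM and tested with edgeR 4.0.16 (quasi-likelihood, robust; R 4.3.3) on all 30 libraries with 1 mean per group, 7 comparisons and Benjamini-Hochberg adjustment over 11030 genes. SE is the log2 fold change divided by the root of F. Limits at 0 counts take 3 counts as the floor and, like counting intervals, cover counting error only. Only the main edgeR test between 2 groups was tried on simulated counts with known changes. The 8 genes and all gene lists were chosen with earlier results of these data known. From each pathway list up to 4 genes are named, those with the largest called change in any comparison and a mean of at least 20 CPM in some group.

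Libraries of 1 mouse come from the same animal, by the mouse number in the labels, so the number pairs them across populations. Their deviations from the group means correlated at -0.0774 to 0.209 over 24 pairs. Alternatives were DESeq2 1.42.0, other scaling, no filter, the mouse as a replicate block, limma voom (limma 3.58.1) with the mouse as a random block, collection date as a term, only the libraries compared, no library under 300000 counts, and each library left out. Within a group each library is from another mouse, so p-values measure the spread between animals within groups, estimated over all 30 libraries. The main test leaves the pairing out and treats libraries of 1 mouse as independent. The genes most similar to Cd80 are not reported here.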

Additional observations from a re-analysis of the deposited data

Results flagged for a closer look

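In 6 of 39 gene and group combinations a single library lay far from the other 5, with a gap to its neighbour of over 0.625 of the group's range. For normally distributed values chance gives such a gap in about 1 group in 20, a rate that need not hold for low counts. A group with counts in a single library, as for Cd276 below, always passes this limit. No explanation was tested for any of them.

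The library of mouse 24117 in WT Mono gave 2 of these. Its Cd40 was 372.7 CPM with the next library at 241.1 CPM, and its Cd274 was 152.4 CPM with the next at 65.0 CPM. The WT RPM library of the same mouse had 28.3 CPM of Icosl, with the next at 8.61 CPM.

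Pdcd1lg2 in TLR7.1 Mono was 6.99 CPM in mouse 24308, with the next library at 2.7 CPM. Cd276 was 1.8 CPM in the WT RPM library of mouse 24214 and 0.586 CPM in the WT Mono library of mouse 24416, each from 1 count with 0 in the other 5 libraries.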

How the results depend on the processing

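Of the called differences of single genes, 491 values under the alternatives kept direction and call, 17 lost the call and 0 reversed. Of those not called, 662 stayed so in the same direction, 6 became called and 28 turned sign. These counts include the setting with mouse 24261 as the only iHPC library, chosen after the data had been seen. The lost calls of Cd86 and Cd274 for iHPC against RPM, and of Cd86 for iHPC against Mono, came from that setting. The count of the 8 called between TLR7.1 RPM and WT RPM was 0 with only the libraries compared, and ran from 1 to 3 with single libraries left out. It ran from 3 to 5 between WT RPM and WT Mono, and from 0 to 1 for the interaction. With only the libraries compared, Cd80, Cd276 and Icosl did not pass the filter for iHPC against RPM. Pdcd1lg2 and Cd276 did not for WT RPM against WT Mono, and 4 of the 8 were called in each comparison. For TLR7.1 RPM against WT RPM, Pdcd1lg2, Cd276 and Icosl did not pass the filter in that setting.

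Signs turned in values that were not called. With the mouse as a replicate block, Icosl stood at 0.01 for iHPC against RPM and Cd80 at -0.16 for WT RPM against WT Mono. The block ended the call of Pdcd1lg2 in WT RPM against WT Mono (log2 1.34) and changed no other call of the 8. With limma voom, Icosl stood at 0.27 for iHPC against RPM, Cd274 at 0.21 for TLR7.1 Mono against WT Mono, Cd276 at 0.17 for TLR7.1 RPM against TLR7.1 Mono and Cd80 at -0.10 for WT RPM against WT Mono. With collection date as a term, Cd274 stood at 0.03 for TLR7.1 Mono against WT Mono. Without libraries under 300000 counts, Icosl stood at 0.04 for iHPC against RPM, and with mouse 24261 as the only iHPC library Cd40 stood at -0.38 against RPM.

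With single libraries left out, Cd40 ran from -0.04 to 0.65 and Icosl from -0.44 to 0.64 for iHPC against RPM. For TLR7.1 Mono against WT Mono, Cd274 ran from -0.19 to 0.42 and Pdcd1lg2 from -0.21 to 0.51. For TLR7.1 RPM against WT RPM, Cd276 ran from -2.31 to 0.00 and Icosl from -1.82 to 0.07. Cd80 ran from -0.40 to 0.00 for TLR7.1 RPM against TLR7.1 Mono and from -0.16 to 0.36 for WT RPM against WT Mono. For WT RPM against WT Mono, Cd276 ran from -0.97 to 1.79, and for the interaction Icosl ran from -1.65 to 0.25. The cause was not tested for any of these.

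Over all genes, the calls with only the libraries compared came to 1753 for iHPC against RPM, beside 2993, to 160 for TLR7.1 RPM against WT RPM, beside 910, and to 737 for TLR7.1 Mono against WT Mono, beside 232. Limma voom gave 403 for TLR7.1 Mono against WT Mono and 162 for the interaction, and DESeq2 209 for the interaction, beside 76. Without the WT RPM library of mouse 24117, there were 1431 calls for TLR7.1 RPM against WT RPM and 160 for the interaction, which had 50 without the TLR7.1 Mono library of mouse 24261 and 48 without the WT Mono library of mouse 24415. With mouse 24261 as the only iHPC library, the filter kept another set of genes, and the calls over all genes are not compared. With the longest transcript as length, the levels per kilobase of Cd86 moved by more than their SD in all 5 groups. Those of Cd40 in TLR7.1 Mono and of Icosl in TLR7.1 Mono and WT Mono did so too. No other level did.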
